A study of Mus musculus with 16 samples.

Results

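The genes described here are 10 brakes and partners of NF-kB signalling, measured by RNA-seq in mouse CD8+ T cells exposed to prostaglandin E2 (PGE2): Tnfaip3, which encodes A20, Tnip1, Tnip2 and Tnip3, which encode the A20-binding proteins ABIN-1, ABIN-2 and ABIN-3, Nfkbia, Nfkbib, Nfkbid, Nfkbie and Nfkbiz, which encode IkB proteins, and Rel. They were taken by gene symbol and are 10 of the 54532 genes in the count table, with 1 row each. Tnfaip3 was selected on these data, chosen by the difference between its response to PGE2 in unstimulated and in stimulated cells, so its values in those comparisons are given as a description without a test. Rel is the 1 member that encodes an NF-kB subunit. This subunit is c-Rel, which IkB proteins bind.

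CD8+ T cells were isolated from spleens of C57BL/6J mice and activated repeatedly in culture over 4 days, which gave antigen-experienced cells that kept TCF1, the transcription factor of stem-like T cells. They were left untreated or exposed to 100 ng/ml PGE2 for 1 h. For another 4 h, unstimulated cells then received IL-2 alone at 85 U/ml, and stimulated cells received the same IL-2 together with beads carrying antibodies to CD3 and CD28, at 1 bead per cell. Each of the 4 groups (unstimulated untreated, unstimulated PGE2, stimulated untreated and stimulated PGE2) had 4 replicates, and IL-2, the culture and the strain were common to all 16 samples. No source used here says whether replicates came from separate mice or cultures, so the tests measure the spread between these samples, which may be technical. In bulk RNA, a change in the number of cells of a type and a change in RNA per cell cannot be told apart.

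NF-kB dimers wait in the cytoplasm, held by IkB proteins. Signals from the T cell receptor and CD28 reach the IKK kinases, which mark the classical IkB proteins for degradation and free the dimers to enter the nucleus. Many of the inhibitors are themselves NF-kB target genes, which makes a negative feedback loop. A20 edits ubiquitin chains upstream of IKK, and the ABIN proteins bind A20 and ubiquitin chains. PGE2 signals through the receptors EP2 and EP4 to raise cAMP, which leads to activity of CREB, a factor that binds CRE sequences.

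On GRCm38, Tnfaip3 lies at chr10:19000910-19015657, Tnip1 at chr11:54910785-54962917, Tnip2 at chr5:34496087-34513991, Nfkbia at chr12:55489410-55492647, Nfkbib at chr7:28758251-28767512, Nfkbiz at chr16:55811375-55838899 and Rel at chr11:23736847-23770970, all on the minus strand. On the plus strand lie Tnip3 at chr6:65525313-65634040, Nfkbid at chr7:30421732-30428746 and Nfkbie at chr17:45555703-45563169. Nfkbib shares 14.5% of its exon bases with the opposite-strand gene Ccer2 (mean 0.04 CPM, the read count scaled to library size) and 1.94% with the opposite-strand gene Sirt2 (80.3 CPM). The use of strand in counting is not given in the sources used here, so a small share of the Nfkbib count is uncertain.

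RefSeq promoter windows (GRCm38.p6, 250 bases before to 50 after each annotated start) were found for 9 of the 10 genes, 12 windows in all. The 250 bases before the start were searched on both strands for the NF-kB consensus, the CRE half-site TGACG and the AP-1 site TGANTCA. Overlapping matches to the same motif were counted as 1 site. In the same 250 bases of all 32851 windows, 7.25% held the NF-kB consensus, 17.8% the CRE half-site and 6.75% the AP-1 site. Of the 12 windows of the members, 7 held the NF-kB consensus, 1 window each of Tnfaip3, Tnip1, Tnip3, Nfkbia, Nfkbid, Nfkbie and Rel. The CRE half-site stood in 4 of the 12 windows and the AP-1 site in 2 of the 12. The sites below are those of the genes whose responses are given in most detail. Each line reads 5′ to 3′ on the gene's strand, with the match in capitals.
Tnfaip3, NF-kB, chr10:19015411-19015431, minus strand: atttccatcGGAAATCCCCct
Tnfaip3, NF-kB, chr10:19015517-19015544, minus strand: actcacgcgGGGACACCCCggggcggga
Tnfaip3, CRE half-site, chr10:19015565-19015587, minus strand: acatggatgTGACGtggaaggca
Tnfaip3, AP-1 site, chr10:19015531-19015555, minus strand: atgcccaggTGACTCAcgcggggac
Tnip1, NF-kB, chr11:54962978-54963007, minus strand: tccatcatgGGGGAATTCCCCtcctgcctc
Nfkbia, NF-kB, chr12:55492658-55492685, minus strand: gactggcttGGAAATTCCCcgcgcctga
Nfkbid, NF-kB, chr7:30422171-30422198, plus strand: ccccgccctGGGACTTCCCagagcacca
Nfkbid, NF-kB, chr7:30422216-30422243, plus strand: ggccgaacaGGAATTCCCCgtgcgcggg
Nfkbid, CRE half-sites on both strands, chr7:30422346-30422371, plus strand: ttagcgccgTGACGTCAgcgcgcggc
Rel, NF-kB, chr11:23771042-23771070, minus strand: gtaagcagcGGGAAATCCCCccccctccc
Rel, CRE half-site, chr11:23771061-23771083, minus strand: tggcgcgagTGACGtaagcagcg
Tnip1, which fell with beads, and Nfkbia, which rose with them, both held 1 NF-kB match. Tnfaip3 and Nfkbid each held 2 NF-kB matches and at least 1 CRE half-site, and the printed CRE and AP-1 stretches of Tnfaip3 overlapped an exon of a longer transcript of the same gene in GENCODE. A match is a stretch of letters, and binding was not measured.

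The total count per sample was between 22678254 and 42950763, and all 10 genes passed the filter on low counts in every fit. CPM values are on 1 scale over the 16 samples, set by the trimmed mean of M-values (TMM), and are used to compare samples within a gene. Of the CD8+ T cell markers, 6 of 6 were present, summing to 2450 to 4460 CPM per sample. Of the B cell markers, Ms4a1 and Pax5 lay below 1 CPM in every group, while Ighm was 783 CPM in unstimulated untreated, 580 in unstimulated PGE2, 257 in stimulated untreated and 234 in stimulated PGE2 cells. In the same order, Cd79b was 13.1, 9.17, 5.45 and 4.08 CPM and Cd79a was 1.89, 2.25, 1.24 and 1.57 CPM. Of the 6 myeloid markers, 5 lay below 1 CPM, as did Cd4, and of the 5 NK cell markers all but Eomes, a gene that activated CD8+ T cells also express, lay below 1 CPM. Of the 4 CD4+ T cell markers, Zbtb7b led with 15 to 27.3 CPM, and all 6 erythroid markers lay below 1 CPM. The part in the results below of cells that express Ighm, Cd79a, Cd79b or Eomes was not tested.

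The gene of A20 was higher with PGE2 in unstimulated cells and not in stimulated cells, and its level with beads was above that without them in both PGE2 states. Tnfaip3 stood at 149, 155, 173 and 186 CPM in the 4 unstimulated untreated samples and at 339, 317, 323 and 316 CPM after PGE2. It stood at 667, 619, 555 and 514 CPM in stimulated untreated cells and at 599, 544, 474 and 494 CPM in stimulated cells exposed to PGE2. Without beads the PGE2 samples all lay above the untreated samples, and with beads the groups overlapped. PGE2 exposure was thus accompanied by 1.98 times the Tnfaip3 level in unstimulated cells (log2 fold change 0.98, SE 0.074) and 0.901 times in stimulated cells (-0.15, SE 0.0994). The interaction, which is the PGE2 effect in stimulated cells minus that in unstimulated cells, was -1.12 (SE 0.131) on the log2 scale. These values chose the gene and are not tested here.

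Read the other way, Tnfaip3 had a mean of 166 ± 16.8 CPM without and 589 ± 67.8 CPM with beads (SD, n = 4 each) in untreated cells, and of 324 ± 10.7 CPM without and 528 ± 55.7 CPM with beads in PGE2 cells. The log2 fold changes were 1.81 (3.52-fold) and 0.72 (1.65-fold), and their difference is the interaction already given. Averaged over both PGE2 states, a contrast that the choice of the gene did not use, Tnfaip3 rose 2.4-fold with the beads (log2 fold change 1.27, SE 0.0662, edgeR adjusted p = 1.77e-11). This test shares its samples and their spread with the comparisons that chose the gene. Within each PGE2 state Tnfaip3 was higher with beads in 4 of 4 same-numbered pairs, which is a description because the interaction is made of these responses.

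**Figure D1:**
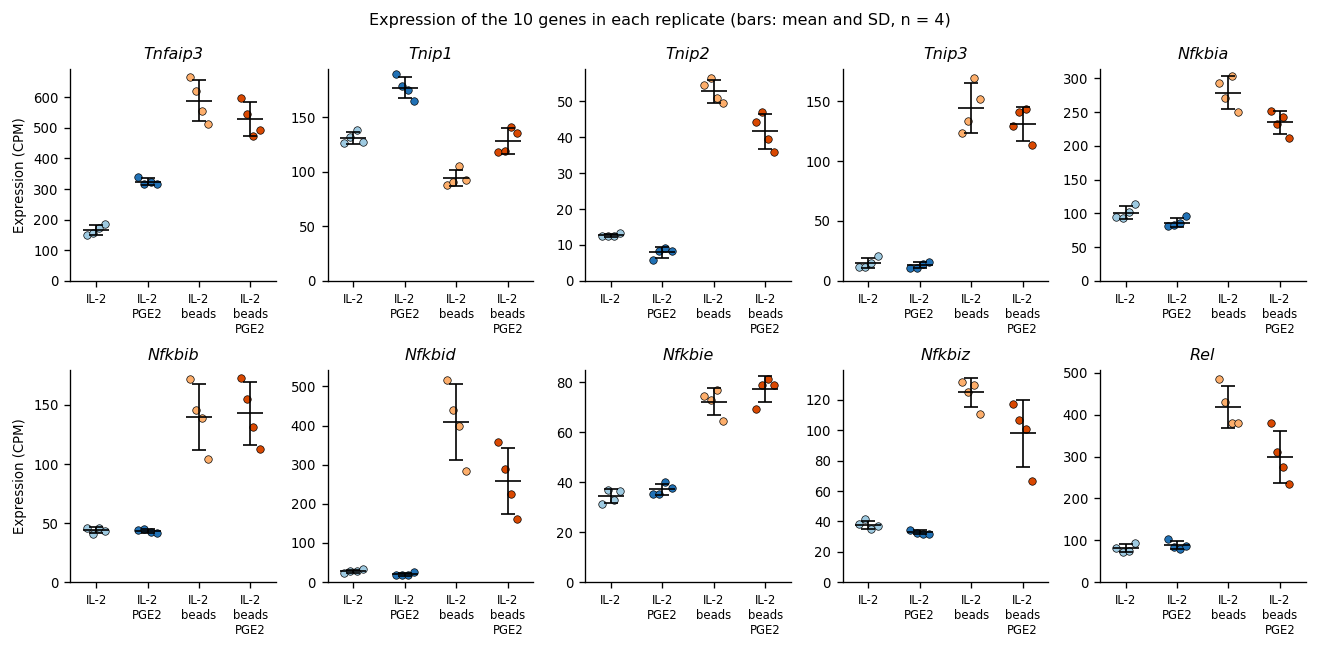
Expression of the 10 genes in CPM (vertical axis, from 0) in each replicate of the 4 groups (horizontal axis), with bars for the mean and SD of 4 replicates. Tnfaip3 lies between 316 and 339 CPM in unstimulated PGE2 cells against 149 to 186 CPM in untreated ones, while Tnip1 is lower with beads and the other 9 genes are higher with beads in both PGE2 states.

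The ABIN genes did not move together. Tnip1 rose with PGE2 in both states, and Tnip3 passed the test in neither. Tnip2 fell in both, with a call in stimulated cells that 9 of 18 alternatives lost. ABIN-1, the product of Tnip1, binds A20 and restrains inflammatory signalling, and ABIN-2, the product of Tnip2, is also a partner of the kinase TPL2.

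Tnip1 measured 126, 132, 138 and 127 CPM in unstimulated untreated cells and 189, 178, 175 and 165 CPM after PGE2. In stimulated cells it measured 87.9, 90.8, 105 and 92.7 CPM without and 118, 119, 141 and 135 CPM with PGE2. In both states every PGE2 sample lay above every untreated sample. The rise was 1.37-fold in each state, with a log2 fold change of 0.45 in unstimulated cells (SE 0.0569, edgeR adjusted p = 0.000167) and of 0.45 in stimulated cells (SE 0.0867, edgeR adjusted p = 0.0104). The interaction was 0.01 on the log2 scale (SE 0.105). Tnip1 also fell with the beads, by 0.49 on the log2 scale without PGE2 (SE 0.0722, edgeR adjusted p = 5.83e-05) and by 0.45 with it (SE 0.0743, edgeR adjusted p = 0.000329), lower in 4 of 4 same-numbered pairs each time. The highest mean of Tnip1, 177 ± 10 CPM, was in unstimulated PGE2 cells and the lowest, 94.2 ± 7.69 CPM, in stimulated untreated cells (SD, n = 4).

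Tnip2 measured 12.4, 12.6, 12.6 and 13.3 CPM in unstimulated untreated cells and 5.8, 8.25, 9.17 and 8.43 CPM after PGE2. With beads it measured 54.6, 56.5, 50.8 and 49.5 CPM without and 44.1, 47.1, 39.4 and 36 CPM with PGE2. The PGE2 samples were lower throughout, with no overlap in either state. The fall was to 0.633 times the untreated level without beads (log2 fold change -0.66, SE 0.138, edgeR adjusted p = 0.00421) and to 0.792 times with beads (-0.34, SE 0.0906, edgeR adjusted p = 0.0434). The call in stimulated cells was lost without any 1 of the 4 stimulated untreated samples and without stimulated PGE2 replicate 3 or 4 (adjusted p 0.0516 to 0.131 in these 6 fits). It was also lost in the 3 fits on FPKM (limma adjusted p 0.0649 to 0.131). Over all 18 alternatives its adjusted p was 0.000459 to 0.131. The beads raised Tnip2 4.11-fold in untreated cells (2.04 on the log2 scale, SE 0.081, edgeR adjusted p = 6.52e-09) and 5.29-fold in PGE2 cells (2.4, SE 0.153, edgeR adjusted p = 1.28e-06).

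Tnip3, whose product ABIN-3 is the A20-binding protein best known as inducible, lay between 10.8 and 21 CPM in the 8 unstimulated samples and between 113 and 169 CPM in the 8 stimulated samples. The beads raised it 9.49-fold without PGE2 (log2 fold change 3.25, SE 0.174, edgeR adjusted p = 2.19e-08) and 10.3-fold with it (3.36, SE 0.15, edgeR adjusted p = 7.01e-07). Its PGE2 effect was -0.19 (SE 0.199) in unstimulated and -0.13 (SE 0.116) in stimulated cells on the log2 scale, and neither passed the test.

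The classical IkB genes rose with the beads and showed PGE2 effects of at most 0.24 on the log2 scale in either direction. Nfkbia encodes IkB-alpha, which is degraded and made again within each round of NF-kB activity. It measured 94.3, 93.5, 102 and 114 CPM in unstimulated untreated cells and 81.9, 82.1, 85.7 and 96 CPM after PGE2. In stimulated cells it measured 293, 271, 303 and 250 CPM without and 251, 233, 243 and 211 CPM with PGE2. The groups overlapped in both states, yet each PGE2 sample was below the untreated sample of the same replicate number, in 4 of 4 pairs without and 4 of 4 with beads. The log2 fold change was -0.2 in unstimulated cells (SE 0.0809, edgeR adjusted p = 0.0875) and -0.24 in stimulated cells (SE 0.0819, edgeR adjusted p = 0.0913). With the replicate number as a block, so that same-numbered samples were compared with each other, Nfkbia passed in both states (edgeR adjusted p = 0.000155 and 0.0013). Over the 18 alternatives of each comparison the adjusted p ran from 0.000155 to 0.236 and from 0.0013 to 0.236, and the unstimulated call was also made without unstimulated PGE2 replicate 4 (adjusted p = 0.0328).

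Nfkbib, which encodes IkB-beta, overlapped across PGE2 in both states, with 40.7 to 46.1 CPM without and 41.7 to 45.2 CPM with PGE2 in unstimulated cells, and 104 to 172 CPM without and 113 to 173 CPM with PGE2 in stimulated cells. Its log2 fold changes with PGE2 were 0 (SE 0.0593) and 0.03 (SE 0.161). Nfkbie, which encodes IkB-epsilon, lay at 31.4 to 36.8 and 35.3 to 40.1 CPM without beads and at 64.6 to 77.1 and 69.5 to 81.3 CPM with beads, each time untreated before PGE2. Its log2 fold changes with PGE2 were 0.13 (SE 0.0783) and 0.1 (SE 0.0759). Neither gene passed the test in either state. With the beads, Nfkbia rose 2.74-fold without and 2.74-fold with PGE2, Nfkbib 3.18-fold and 3.35-fold, and Nfkbie 2.08-fold and 2.09-fold, with edgeR adjusted p-values from 5.25e-08 to 2.04e-06.

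Nfkbid and Nfkbiz encode IkB-NS and IkB-zeta, atypical members of the family that act in the nucleus on NF-kB bound to DNA. Nfkbid had the strongest response to the beads among the 10 genes. It measured 23.4, 27.3, 28.5 and 32.4 CPM in unstimulated untreated cells and 517, 441, 398 and 284 CPM in stimulated untreated cells. With PGE2 it measured 17.6, 17.5, 17.1 and 26 CPM without beads and 359, 288, 226 and 161 CPM with beads. The stimulated samples lay far above the unstimulated ones, and in both stimulated groups replicate 1 was the highest and replicate 4 the lowest. The rise with the beads was 14.6-fold without PGE2 (log2 fold change 3.87, SE 0.181, edgeR adjusted p = 1.26e-08) and 13.4-fold with it (3.74, SE 0.255, edgeR adjusted p = 1.52e-06).

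PGE2 exposure was accompanied by less Nfkbid in 4 of 4 same-numbered pairs in each state. The log2 fold change was -0.49 in unstimulated cells (0.71 times, SE 0.146, edgeR adjusted p = 0.0255) and -0.66 in stimulated cells (0.634 times, SE 0.237, edgeR adjusted p = 0.109). With the replicate number as a block the estimates were -0.51 and -0.69 and both passed (edgeR adjusted p = 1.36e-05 and 1.5e-05). Without the block, the unstimulated call was lost when unstimulated untreated replicate 2, 3 or 4 or unstimulated PGE2 replicate 1, 2 or 3 was left out (adjusted p 0.0518 to 0.083 in these 6 fits, 1.36e-05 to 0.101 over all 18 alternatives). The stimulated effect passed in 4 of 18 alternatives, which were the block, DESeq2 (adjusted p = 0.037), 1 fit of all 16 samples (0.0417) and the fit without stimulated PGE2 replicate 1 (0.0351), and its adjusted p ran from 1.5e-05 to 0.29 over the 18.

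Nfkbiz lay at 34.9 to 41.4 CPM in unstimulated untreated, 31.5 to 34.6 CPM in unstimulated PGE2, 111 to 132 CPM in stimulated untreated and 66.5 to 117 CPM in stimulated PGE2 samples. It was lower with PGE2 in 4 of 4 pairs in each state, by 0.19 on the log2 scale without beads (SE 0.0633, edgeR adjusted p = 0.0448) and by 0.34 with beads (SE 0.15, edgeR adjusted p = 0.175). The unstimulated call held when unstimulated untreated replicate 3 was left out, and the adjusted p was 0.0501 to 0.219 without any other 1 of the 8 samples. The blocked fit gave adjusted p = 0.0064 and 0.00459, and the 18 alternatives spanned 0.0064 to 0.251 and 0.00459 to 0.352. The unstimulated effect passed in 4 of the 18 and the stimulated effect in 1 of 18, the block. The unstimulated call was lost with RLE factors (adjusted p = 0.0618), DESeq2 (0.0642), no filter on low counts (0.102), the FPKM fits (0.0637 to 0.116) and 1 fit of all 16 samples (0.251). The beads raised Nfkbiz 3.27-fold in untreated and 3.03-fold in PGE2 cells (edgeR adjusted p = 1.45e-08 and 7.69e-06).

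c-Rel is the subunit that T cells need for full expression of Il2 and other activation genes. Rel measured 82.3, 72, 74.1 and 93.8 CPM in unstimulated untreated cells and 102, 84.7, 80 and 85.9 CPM after PGE2. With beads it measured 486, 431, 381 and 379 CPM without and 381, 310, 274 and 234 CPM with PGE2. The unstimulated groups overlapped widely, and in stimulated cells the groups met at 379 to 381 CPM. PGE2 exposure of stimulated cells gave 0.719 times the untreated level (log2 fold change -0.48, SE 0.141, edgeR adjusted p = 0.06, lower in 4 of 4 pairs). It passed in 6 of 18 alternatives, which were the replicate block (adjusted p = 0.000114), the fit without stimulated PGE2 replicate 1 (0.0137), DESeq2 (0.0182), 1 fit of all 16 samples (0.019), no filter on low counts (0.0321) and upper-quartile factors (0.0469), and its adjusted p ran from 0.000114 to 0.186 over the 18. In unstimulated cells the log2 fold change was 0.15 (SE 0.0885, edgeR adjusted p = 0.252, higher in 3 of 4 pairs), with 0.0282 in the blocked fit and 0.0282 to 0.533 over the 18 alternatives.

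The beads raised Rel 5.17-fold without PGE2 (log2 fold change 2.37, SE 0.113, edgeR adjusted p = 1.35e-08) and 3.45-fold with it (1.79, SE 0.144, edgeR adjusted p = 2.9e-06). The difference between these responses, -0.61 on the log2 scale (SE 0.184), had an unadjusted p of 0.00382 and an edgeR adjusted p of 0.18. Among the 10 genes it was the most negative interaction after that of Tnfaip3. With the replicate block the estimate was also -0.61 and passed (edgeR adjusted p = 0.0307, against 2.7% of all genes called in that fit), and over 25 alternatives the adjusted p ran from 0.0307 to 0.427.

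**Figure D2:**
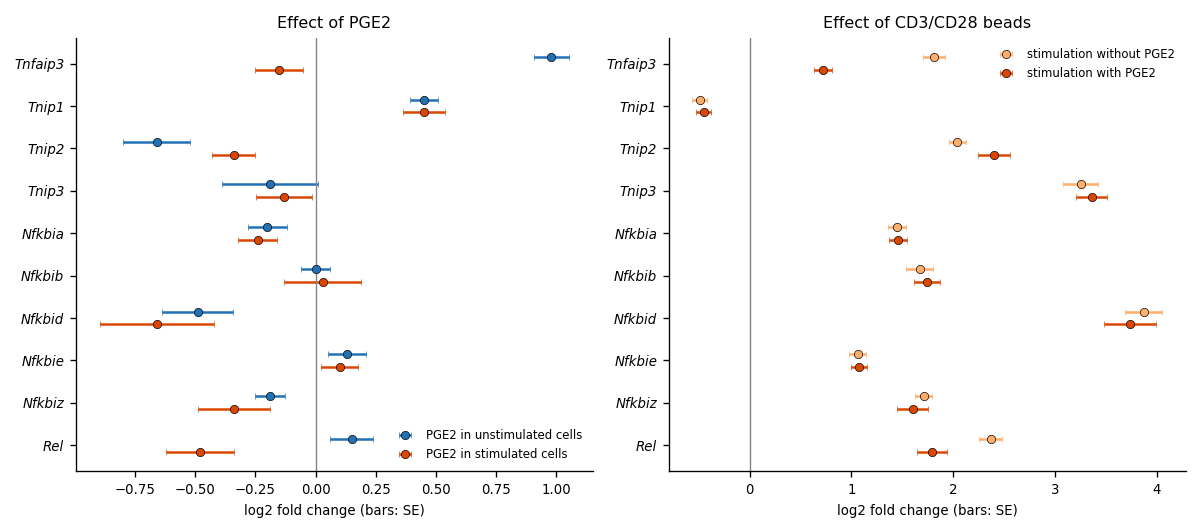
Log2 fold changes (horizontal axis, bars for the SE) of the 10 genes with PGE2 in unstimulated and stimulated cells (left) and with beads in untreated and PGE2 cells (right). Tnfaip3 (0.98 against -0.15) and Rel (0.15 against -0.48) have PGE2 effects of opposite sign in the 2 states, and Tnip1 is at 0.45 in both.

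Over the 9 members other than Tnfaip3, 2 passed an adjusted p of 0.05 for PGE2 in stimulated cells, against 9.84% of the 13922 genes tested. Tnip1 was higher (6.04% of all genes were) and Tnip2 lower (3.8% of all genes were). The median log2 fold change of the 9 genes was -0.24, against -0.006 over all genes. In unstimulated cells 4 of 9 passed, against 28.4% of 14505 genes. Tnip1 was higher (12.9% of all genes were), and Tnip2, Nfkbid and Nfkbiz were lower (15.5% of all genes were). The median of the 9 was -0.19, against -0.001 over all genes. None of the 9 reached a fold change of 2 as well in stimulated cells, as 1.75% of all genes did, or in unstimulated cells, as 3.38% did.

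The groups did not overlap for 2 of the 9 genes in stimulated cells, against 17.9% of all genes, and for 3 of the 9 in unstimulated cells (Tnip1, Tnip2 and Nfkbiz), against 28.9%. With the replicate block 6 of 9 passed in stimulated cells, against 39.8% of all genes, and 6 of 9 in unstimulated cells, against 47.8%. In stimulated cells these were Tnip1 upwards and Tnip2, Nfkbia, Nfkbid, Nfkbiz and Rel downwards, and in unstimulated cells Tnip1 and Rel upwards and Tnip2, Nfkbia, Nfkbid and Nfkbiz downwards. The share of all genes called also rose with the block, so the count of members is to be read against it.

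**Figure D3:**
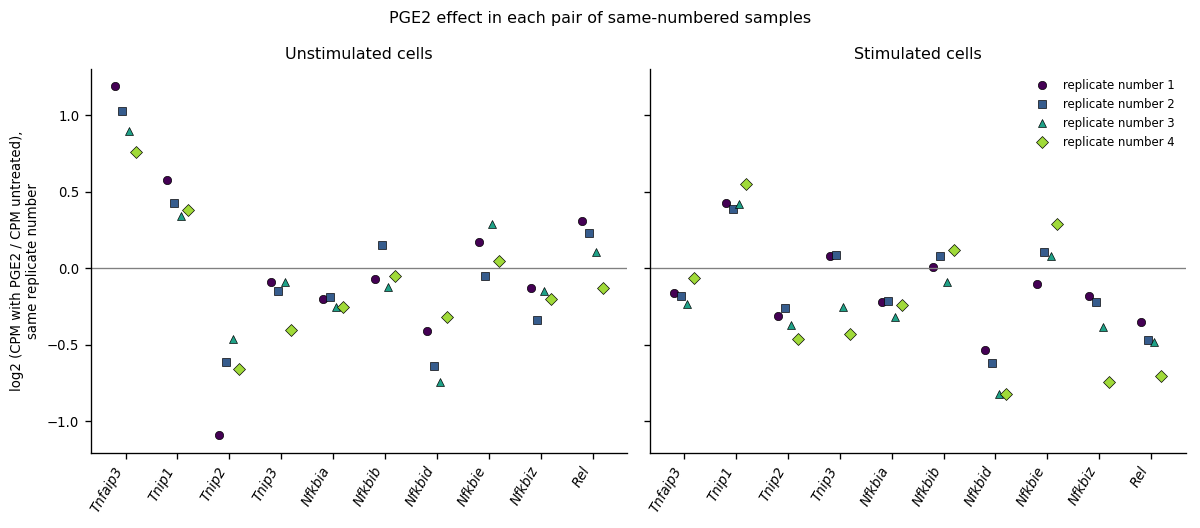
Log2 ratio of CPM with PGE2 to CPM untreated (vertical axis) for each of the 4 same-numbered pairs of samples and each gene, in unstimulated (left) and stimulated cells (right). Tnip2, Nfkbia, Nfkbid and Nfkbiz lie below 0 in 4 of 4 pairs on both sides, Tnip1 lies above 0 in 4 of 4, and Tnfaip3 runs from 0.76 to 1.19 on the left and from -0.23 to -0.06 on the right.

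For the beads, 9 of the 9 genes passed without PGE2, against 66.5% of 14205 genes, and 9 of 9 with PGE2, against 64.2% of 14507. Upwards went 8 genes without PGE2 (31.7% of all genes) and 8 with it (32.5%), and Tnip1 fell both times (34.8% and 31.7% of all genes). These 8 genes also rose at least 2-fold, against 11.5% of all genes without and 12.7% with PGE2. Averaged over PGE2, all 10 genes passed, against 74.5% of 15096 genes. Of the 10, 9 rose at least 2-fold (12.3% of all genes) and Tnip1 fell (38.2% of all genes). For the interaction, 0 of the 9 passed by edgeR, against 0.749% of 15096 genes, and DESeq2 also called 0. Rel and Tnip2 (0.34, SE 0.158) were the 2 genes with an unadjusted p below 0.05.

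The other genes of the pathway, 74 in 6 lists of which 72 were tested, give the surroundings of the 10. With PGE2 in stimulated cells 8 of 72 rose and 7 fell, where 9.84% of all genes were called, and with the replicate block 11 rose and 23 fell, where 39.8% were. In unstimulated cells 15 rose and 18 fell, beside 28.4% of all genes called, and with the block 29 rose and 27 fell, beside 47.8%. For the beads 42 rose and 15 fell without PGE2, and 43 rose and 15 fell with it, beside 66.5% and 64.2% of all genes called. In the interaction 0 of 72 passed by edgeR, beside 0.749% of all genes. Traf1 (-0.4, SE 0.0904, edgeR adjusted p = 0.0501) and Bcl3 (-0.66, SE 0.15, edgeR adjusted p = 0.0516) came nearest. A blocked interaction is not given for these genes.

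Of the 4 other NF-kB subunit genes, 4 rose with the beads in both PGE2 states, led by Nfkb2 (log2 fold change 1.97, SE 0.114, edgeR adjusted p = 3.4e-08 without PGE2, and 1.64, SE 0.105, adjusted p = 1.28e-06 with it). With PGE2, 0 of 4 passed in stimulated cells, 1 fell with the block, and Nfkb2 (0.29, SE 0.0868, edgeR adjusted p = 0.0261) and Relb (0.24, SE 0.0773, edgeR adjusted p = 0.0378) rose in unstimulated cells, where 4 of 4 rose with the block. The PGE2 effects on Nfkb1 in stimulated cells (0.12, SE 0.144) and on Rela (-0.12, SE 0.113) stand beside the -0.48 of Rel. Of all genes, 31.7% rose with the beads without PGE2 and 32.5% with it. With PGE2, 9.84% of all genes were called in stimulated and 28.4% in unstimulated cells (39.8% and 47.8% with the block).

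Among 11 other ubiquitin-editing genes, which work on the same chains as A20, 6 rose and 1 fell with PGE2 in unstimulated cells. Of all genes, 12.9% rose and 15.5% fell there. Spata2, an adaptor of the deubiquitinase CYLD, rose by 0.36 (SE 0.0813, edgeR adjusted p = 0.00652), Rnf31, which encodes the linear ubiquitin ligase HOIP, rose by 0.34 (SE 0.0632, edgeR adjusted p = 0.00225), and Otulin, which removes linear chains, fell by 0.32 (SE 0.0632, edgeR adjusted p = 0.00322). With the block 7 rose and 2 fell there, beside 47.8% of all genes called. In stimulated cells 3 rose and 1 fell (4 and 1 with the block), with Otulin again lower (-0.36, SE 0.0846, edgeR adjusted p = 0.026) and Tax1bp1, an adaptor of A20, higher (0.29, SE 0.0746, edgeR adjusted p = 0.0363). Of all genes, 9.84% were called with PGE2 in stimulated cells, and 39.8% with the block. The list had a median of 0.23 without beads and 0.1 with them.

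Of 10 IKK and upstream kinases, 2 passed in stimulated cells, both higher, and 1 rose and 1 fell in unstimulated cells (4 and 3 with the block). Map3k14, which encodes the NF-kB-inducing kinase NIK, rose with PGE2 in both states, by 0.32 in unstimulated (SE 0.0585, edgeR adjusted p = 0.00193) and 0.27 in stimulated cells (SE 0.058, edgeR adjusted p = 0.0176). Of 9 TRAF and cIAP genes, 2 rose and 1 fell in unstimulated cells (4 and 1 with the block) and 1 rose in stimulated cells. Birc2, which encodes the ubiquitin ligase cIAP1, rose by 0.51 (SE 0.113, edgeR adjusted p = 0.00582) and 0.55 (SE 0.152, edgeR adjusted p = 0.0484). The counts of both lists stand beside 28.4% of all genes called in unstimulated and 9.84% in stimulated cells (47.8% and 39.8% with the block).

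Of 10 other regulators of the pathway, 2 rose and 4 fell in unstimulated cells (4 and 5 with the block). In stimulated cells 1 rose and 1 fell (2 and 3 with the block). Of all genes, 28.4% and 9.84% were called in these states, and 47.8% and 39.8% with the block. Nkrf had the largest change with PGE2 in unstimulated cells and fell by 0.7 (SE 0.1, edgeR adjusted p = 0.000372). Bcl3, an atypical IkB gene like Nfkbid and Nfkbiz, rose by 0.37 in unstimulated cells (SE 0.0934, edgeR adjusted p = 0.0114). The estimates of Nfkbid and Nfkbiz were negative there (-0.49 and -0.19), with calls that 8 and 14 of 18 alternatives lost. Tnfaip8l2, which encodes the T cell inhibitor TIPE2, rose by 0.78 with PGE2 in stimulated cells (SE 0.116, edgeR adjusted p = 0.00307), from 14.7 ± 1.49 to 25.1 ± 3.36 CPM (SD, n = 4), and fell by 2.17 with the beads (SE 0.107, edgeR adjusted p = 1.48e-08).

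Of 28 tested NF-kB target genes outside the 10, 25 rose with the beads without PGE2 and 24 with it, with median log2 fold changes of 2.68 and 2.4. Beside them, 31.7% of all genes rose without PGE2 and 32.5% with it. With PGE2 in stimulated cells 1 rose and 5 fell (2 and 18 with the block), beside 9.84% of all genes called (39.8% with the block). In unstimulated cells 2 rose and 11 fell (6 and 16 with the block), beside 28.4% (47.8% with the block). The chemokine gene Ccl3 fell by 1.98 in stimulated cells (SE 0.496, edgeR adjusted p = 0.0345), the cytokine gene Il2 fell by 1.95 (SE 0.474, edgeR adjusted p = 0.0305) and Lta, which encodes lymphotoxin alpha, fell by 1.66 (SE 0.325, edgeR adjusted p = 0.0115). Il2 stood at 101 ± 47.3 CPM in stimulated untreated and 26 ± 16.6 CPM in stimulated PGE2 cells (SD, n = 4). Over the 28 target genes the median log2 fold change with PGE2 was -0.26 with beads and -0.22 without, near the -0.24 and -0.19 of the 9 members. A difference between the targets and the members was not tested.

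**Figure D4:**
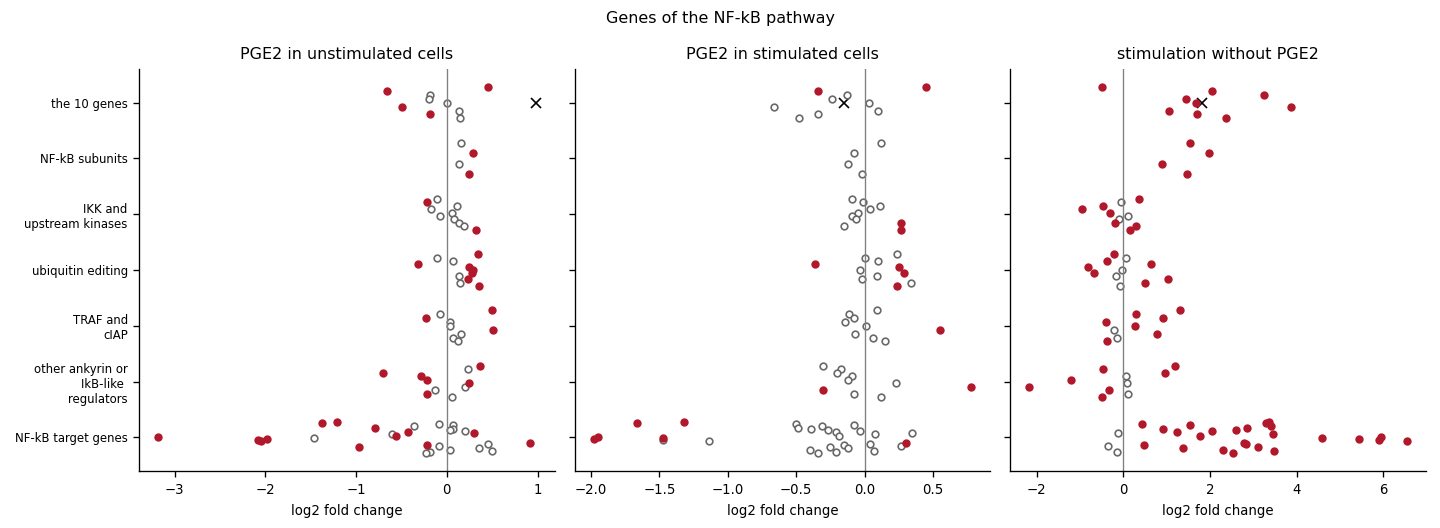
Log2 fold changes (horizontal axis) of the 10 genes and of the 6 lists of other NF-kB pathway genes (rows) with PGE2 in unstimulated cells, with PGE2 in stimulated cells and with beads in untreated cells. Filled points passed an edgeR adjusted p of 0.05, open points did not, and the cross is Tnfaip3, which was not tested here. On the right, 25 of 28 target genes and 4 of 4 subunits lie at filled points above 0, where 31.7% of all genes were called higher.

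Levels of different genes were compared per length, as the deposited FPKM (fragments per kilobase of exon, scaled to library size). Nfkbia was the most abundant of the 10 in unstimulated untreated cells at 59.5 ± 5.4 FPKM (SD, n = 4), followed by Tnip1 (35.2 ± 1.38 FPKM), and neither overlapped with the next gene. Tnfaip3 (21.8 ± 2.12 FPKM) and Nfkbib (19.2 ± 1.07 FPKM) came next and overlapped with each other, as did Nfkbid, Nfkbie and Rel between 10.3 and 11.3 FPKM. Nfkbiz (7.16 FPKM), Tnip2 (4.51 FPKM) and Tnip3 (1.3 FPKM) closed the order, without overlap between neighbours.

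With PGE2 alone Tnfaip3 stood at 43.2 ± 1.56 FPKM, where it overlapped with Tnip1 at 48.1 ± 2.9 FPKM, and Tnip1 with Nfkbia at 51.7 ± 3.7 FPKM. In stimulated untreated cells Nfkbid (167 ± 42.7 FPKM) and Nfkbia (165 ± 15.4 FPKM) headed the order and overlapped. Tnfaip3 (77.6 ± 10.6 FPKM), Nfkbib (61.7 ± 13.5 FPKM) and Rel (53.5 ± 7.59 FPKM) followed, each overlapping with the next. Tnip1, Nfkbiz, Nfkbie and Tnip2 lay between 18.7 and 25.3 FPKM with overlap between neighbours, and Tnip3 was last at 12.5 FPKM. In stimulated PGE2 cells each of the first 6, from Nfkbia (138 ± 11 FPKM) through Nfkbid (105 ± 35.4 FPKM), Tnfaip3 (69.4 ± 8.12 FPKM), Nfkbib (62.6 ± 12.2 FPKM) and Rel (38.2 ± 8.34 FPKM) to Tnip1 (34.4 ± 2.81 FPKM), overlapped with its neighbour. Tnip1 thus moved from rank 2 without beads to rank 6 with them, and Nfkbid from rank 5 to rank 1 in untreated cells.

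**Figure D5:**
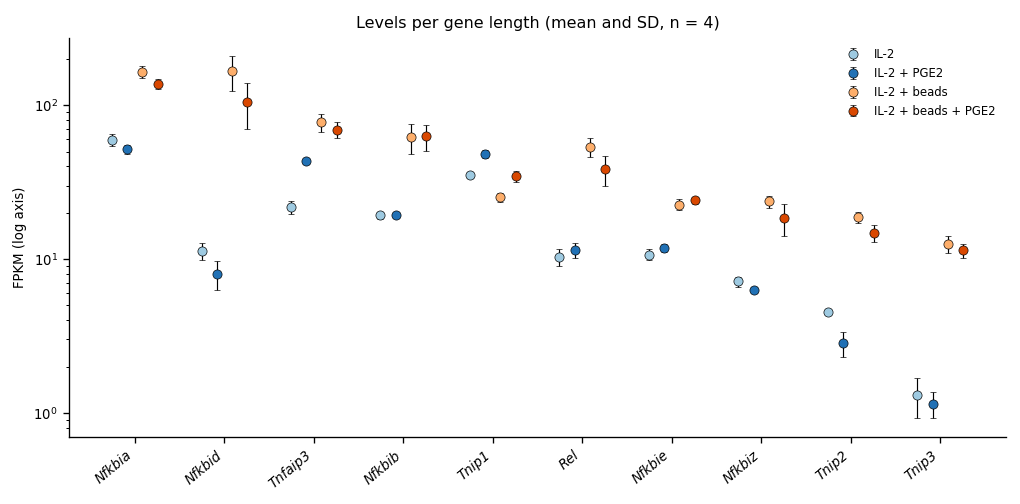
FPKM (vertical log axis) of the 10 genes in the 4 groups, as the mean and SD of 4 replicates, ordered by their average. Nfkbid spans the widest range, from 8 FPKM in unstimulated PGE2 to 167 FPKM in stimulated untreated cells, and Tnip1 the narrowest.

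The genes whose pattern was most like that of Tnfaip3 over the 16 samples, by Pearson's r of log2 CPM among the 9913 other genes whose mean reached 5 CPM, were Gch1 (0.993), Csnk1e (0.982), Sik3 (0.974), Hps4 (0.971) and Slamf1 (0.971). The points share the bead effect, which sets most of their range, so the values are a description. Gch1, which encodes the first enzyme of tetrahydrobiopterin synthesis, had means of 14.9 ± 1.67, 29.9 ± 3.09, 68 ± 10.3 and 55.7 ± 10.3 CPM (SD, n = 4) in unstimulated untreated, unstimulated PGE2, stimulated untreated and stimulated PGE2 cells. Slamf1, a surface receptor of activated T cells, had means of 19.3 ± 1.69, 36 ± 2.43, 77.8 ± 20.6 and 66.7 ± 21.8 CPM in the same order. Both were higher with PGE2 alone, with no overlap with the untreated samples, and overlapped across PGE2 with beads, as Tnfaip3 did. Because the genes were picked by r with Tnfaip3, a like pattern follows in part from the choice. With beads, Csnk1e lay at 25 to 26.9 CPM untreated and 21 to 23.9 CPM with PGE2, without overlap. Sik3 had means of 167 ± 16.8 CPM untreated and 186 ± 24 CPM with PGE2 there. By Spearman's rho, 2 of the 5 genes (Gch1 and Slamf1) were again among the top 5.

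Among the 10 genes themselves, r of log2 CPM over the 16 samples between Tnfaip3 and the others was highest for Rel (0.893) and Nfkbie (0.88) and lowest for Tnip2 (0.744) among the genes that rose with beads, and it was -0.449 for Tnip1. Nfkbia and Nfkbid had the highest value of any pair, 0.995. Tnip1 had a negative r with each of the other 9, down to -0.849 with Tnip2. These values share the libraries and the bead effect and carry no test.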

How the data were processed

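The authors made poly(A)-selected libraries, sequenced them as paired ends, aligned them to GRCm38 with HISAT2 2.0.5 and counted reads per gene with featureCounts 1.5.0-p3, per the submitters' processing notes, which also name DESeq2 1.20.0. The deposited counts are whole numbers without normalization, and the authors also deposited FPKM derived from count and gene length. The annotation release and counting options are not given in the sources used here. The positions of the 10 genes equal those of GENCODE M21.

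All 16 samples were grouped by their labels. Counts were tested with edgeR 4.0.16 in R 4.3.3: filterByExpr with a minimum count of 10, TMM, glmQLFit and glmQLFTest, two-sided, with Benjamini-Hochberg adjustment over all genes of each fit. Pairwise fits held the 8 samples compared, and the interaction and the averaged contrast all 16. A gene was called at an adjusted p of 0.05. A prior count of 2 went into log2 CPM. Per-sample depth was 22678254 to 42950763 counts (median 30211840.5). Among the members, Tnip2 had 280 to 449 counts in unstimulated untreated and 165 to 333 in unstimulated PGE2 samples.

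The replicate numbers come from the titles. Deviations from the group means correlated between same-numbered samples at 0.19 to 0.423 for PGE2 in stimulated cells, 0.137 to 0.444 for PGE2 in unstimulated cells, 0.112 to 0.359 for beads without PGE2 and 0.044 to 0.281 for beads with PGE2. All same-numbered pairs exceeded 0.1 in the first 3. Between samples with different numbers the highest correlations were 0.25, 0.124, 0.125 and 0.157, in the same order. The best match of an untreated (for PGE2) or unstimulated (for beads) sample had the same number for 3, 4, 4 and 3 of the 4. The labels do not say that the numbers mark pairs. For the members, blocked values stand beside the PGE2 and interaction results whose call they change. For the other lists, blocked counts are given for PGE2 and not for the interaction.

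Alternatives were size factors by RLE or by upper quartile, leaving out the filter, requiring 10 counts in each sample, DESeq2 1.42.0, the replicate block, limma-trend (3.58.1) on log2-transformed FPKM with a pseudocount of 1 or 0.1 (mean FPKM of at least 1, or unfiltered), 1 fit of all 16 samples, a fold change of at least 2, and leaving out each replicate. No 2 replicates of a group agreed within sampling noise (chi-square per degree of freedom 7.81 to 51.3). The scripts were tested on simulated data.

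The members and lists were chosen with earlier results of these data known. All 10 members are described. In each other list, at most the 3 largest changes past the threshold with a mean of at least 1 CPM could be named per comparison, and list genes named beside Rel without passing were chosen after their values were seen. Promoter sequences are from RefSeq. A further pathway list and a marker gene are left out of the report.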

Additional observations from a re-analysis of the deposited data

Results flagged for a closer look

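Nfkbid in unstimulated PGE2 cells, replicate 4, was 26 CPM, while the other 3 replicates of that group lay between 17.1 and 17.6 CPM. On the log2 scale its gap to the nearest replicate was 0.929 of the range of the group, above the 95% critical value of Dixon's test for 4 samples. It was the 1 such sample in 40 groups of 4 tested (10 genes in 4 groups), where chance gives about 1 in 20. Without it, the log2 fold change of Nfkbid with PGE2 in unstimulated cells was -0.67 (edgeR adjusted p = 0.001), against -0.49 (adjusted p = 0.0255) with it, and over the 18 alternatives the adjusted p ran from 1.36e-05 to 0.101.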

How the results depend on the processing

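Of the 9 genes other than Tnfaip3, the number past the threshold for PGE2 in stimulated cells was 2 (9.84% of all genes), and it was 4 with DESeq2 (7.98% of all genes), 6 with the replicate block (39.8%), 1 with each of the 3 fits on FPKM (9.35% with pseudocount 1, 9.24% with pseudocount 0.1 and 2.62% with no filter), 4 in 1 fit of all 16 samples (14.3%), 0 with a fold change of at least 2 (1.75%), and 1 to 4 when 1 sample was left out (4.49% to 13.2%). In unstimulated cells it was 4 (28.4% of all genes), and it was 2 on unfiltered FPKM (11.6%), 2 in 1 fit of all 16 samples (23.5%), 0 with a fold change of at least 2 (3.38%), and 2 to 4 when 1 sample was left out (21.3% to 27.8%). For the interaction it was 0 (0.749% of all genes). With the replicate block it was 1 (Rel, edgeR adjusted p = 0.0307), where the numbers did not pair every sample and 2.7% of all genes were called. For the beads 9 of 9 genes passed in both PGE2 states under every alternative other than the fold change of at least 2, where 8 of 9 did in each. In the main fits 66.5% of all genes passed without PGE2 and 64.2% with it, and 11.5% and 12.7% rose at least 2-fold. Averaged over PGE2 the counts were 10 of 10 and 9 of 10. There 74.5% of all genes passed in the main fit, and 12.3% rose at least 2-fold. Among the members, the block changed no other call than those given with the results. Of the single values, 542 under other alternatives and 587 with 1 sample left out stayed the same. This means the same direction and side of the threshold. For Tnfaip3 outside the averaged contrast it means the same direction and a move of at most 2 SE. In the same order, 13 and 31 changed sign, 12 and 19 no longer passed, and 13 and 3 newly passed. Values that changed sign lay near 0 and had not passed. Nfkbib with PGE2 in unstimulated cells was 0.01 with RLE factors, upper-quartile factors and DESeq2, 0 with at least 10 counts and with the block, and -0.02 to 0.02 with 1 sample left out. With 1 sample left out, Nfkbib was -0.08 to 0.16 in stimulated cells and Tnip3 -0.31 to 0.02 in unstimulated cells. The interaction of Tnip1 was 0 with RLE factors and DESeq2, -0.02 without a filter, and -0.01 in the 3 FPKM fits, and that of Tnip3 -0.02 on FPKM with pseudocount 1, with and without the filter. With 1 sample left out, interactions were -0.05 to 0.08 for Tnip1, -0.14 to 0.19 for Tnip3, -0.1 to 0.02 for Nfkbia, -0.08 to 0.14 for Nfkbib, -0.35 to 0 for Nfkbid and -0.07 to 0.03 for Nfkbie. The median log2 fold change of all genes for the beads without PGE2 was -0.128 with upper-quartile factors and -0.031 with TMM. The cause of these changes was not tested. Depth was between 22678254 and 42950763 counts per sample. How far counting or the spread between replicates limited each member was not tested.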
